A study of Mus musculus with 9 samples.

Results

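The genes described are 8 that encode transcription factors of the developing lens: Foxe3, Pax6, Prox1, Maf, Sox1, Pitx3, Hsf4 and Six3. They were chosen by name, and 7 of the 8 were among the 7676 genes listed once in the tables of inbred wild type mouse lenses. Sox1 was not listed there, by its symbol or an older one. The study sequenced lens RNA of embryonic mice, collected 15.5 days post conception, in 3 groups of 3 libraries, each library made from 30 pooled lenses. Inbred wild type lenses came from the C57Bl/6<har> strain, with no genotype given. Both other groups were on a mixed background and carried Sip1 flox/flox alleles: mixed wild type had no Cre, and the conditional knockout (cKO) had MLR10Cre. Sip1 is the protein made from Zeb2, a zinc finger transcription factor. MLR10Cre is a transgene that expresses Cre recombinase in lens epithelium and fibres from an αA-crystallin promoter, so lens cells are the cells that lose the allele.

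The lens forms from surface ectoderm, and its anterior epithelial cells divide and then become elongated, crystallin-filled fibre cells at the equator. Pax6 and Six3 act early, when the ectoderm acquires lens fate. Foxe3 and Pitx3 keep the epithelium proliferating, whereas Maf, Prox1, Sox1 and Hsf4 act in fibre differentiation and on crystallin and other fibre genes.

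Promoter sequences are shown first because the factor deleted in the cKO binds DNA, and its zinc fingers are known to recognise a CACCT core. RefSeq sequences (GRCm38.p6) of the 300 bases from 250 before to 50 after a transcription start were searched for CACCT on both strands. Of the 8 genes, 6 had an entry, with 8 promoters among them, and 3 of the 8 promoters held the letters. CACCT was present in 51.9% of 32851 promoters of that length, and the longer CACCTG, which contains it, in 20.2%. The 8 promoters of the genes described held no CACCTG. The promoters of Foxe3 (chr4:114926018-114926317, minus strand) and Pitx3 (chr19:46148276-46148575, minus strand) are printed as the listed genes with a match, 2 in Foxe3 and 1 in Pitx3. Capitals mark the letters, which read AGGTG because each match lies on the opposite strand to the gene.
Foxe3: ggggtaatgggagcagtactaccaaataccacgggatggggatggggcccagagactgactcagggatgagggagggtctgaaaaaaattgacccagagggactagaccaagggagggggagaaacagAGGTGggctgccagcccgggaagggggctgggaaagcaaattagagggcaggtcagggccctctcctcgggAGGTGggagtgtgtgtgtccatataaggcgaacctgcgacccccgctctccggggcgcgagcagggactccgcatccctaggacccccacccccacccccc
Pitx3: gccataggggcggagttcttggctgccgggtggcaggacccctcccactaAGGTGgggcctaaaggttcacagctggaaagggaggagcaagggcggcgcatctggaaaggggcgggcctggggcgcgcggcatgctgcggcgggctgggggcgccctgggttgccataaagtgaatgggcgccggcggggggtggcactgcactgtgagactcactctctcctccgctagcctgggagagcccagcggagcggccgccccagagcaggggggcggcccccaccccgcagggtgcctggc
The Sox1 promoter held 1 match, and the promoters of Pax6, Prox1 and Six3 held 0. A match is a description of these letters and no evidence of binding.

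Levels are given in RPKM, a read count divided by exon length and by the mapped reads of its library, so that genes of different length can be set side by side within a library. The inbred libraries had 14.1 to 16.7 M reads, recovered from the steps between RPKM values. The listed genes held 86.7% to 87.0% of these reads and had a median level of 7.65 RPKM, an upper quartile of 16.9 RPKM and a lowest mean of 2.0 RPKM. Crystallins, with all 16 of a fixed list present, held 37.2% ± 1.68 (SD, n = 3) of the reads assigned to listed genes. Defining fibre genes Mip (3622 ± 60.03 RPKM), Bfsp1 and Bfsp2 and the epithelial genes Cdh1 (35.0 ± 1.82 RPKM) and Pdgfra (22.5 ± 2.60 RPKM) were all listed. Of marker lists for other tissues, 1 of 22 retina genes (Hes5, 2.93 to 3.68 RPKM), 1 of 9 pigment cell genes (Mitf, 2.91 to 3.25), 1 of 16 periocular mesenchyme genes (Eya1, 6.88 to 8.10) and 1 of 17 surface ectoderm genes (Perp, 4.70 to 5.29) were listed. Vessel and blood genes were listed in 10 of 20 cases, with a summed level of 1083 to 1125 RPKM, and their part in the levels below was not tested. Eya1 is also in the list of other lens regulators used below. Pax6, Six3 and Prox1 are also retina genes. In these whole-lens libraries fewer cells of a type and less RNA per cell cannot be told apart.

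The 7 listed genes fell into 3 bands: Maf, Foxe3, Hsf4 and Prox1 at 97.6 to 153 RPKM, Pitx3 at 46.2 RPKM, and Six3 and Pax6 at 13.9 and 11.3 RPKM. Every one of the 7 lay above the median of listed genes, and all but Six3 and Pax6 lay above the upper quartile. Together they had 560 ± 45.3 RPKM and accounted for 0.275% ± 0.0183 (SD, n = 3) of reads in the list. Maf alone held 52.6% ± 1.04 of the reads of the 7.

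**Figure D1:**
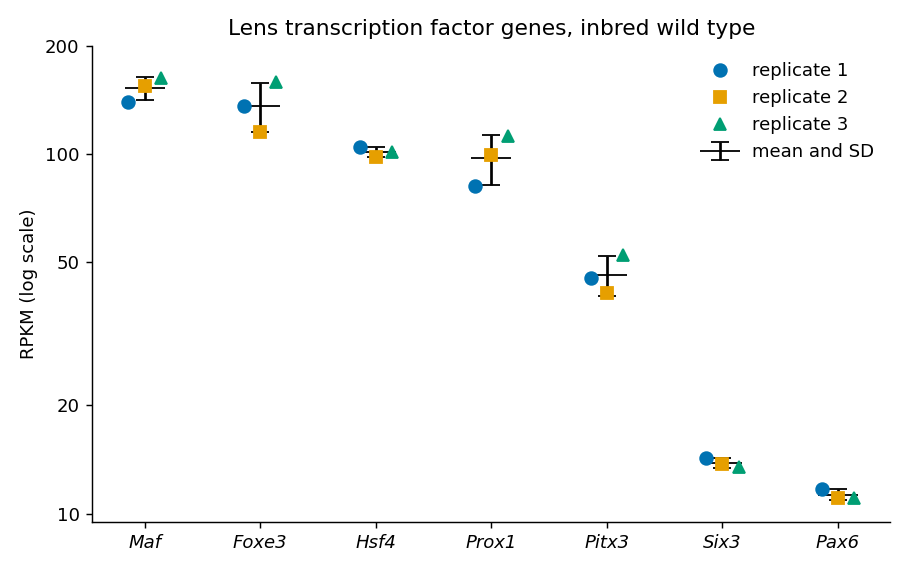
RPKM (log scale) of the 7 listed transcription factor genes in each of the 3 inbred wild type libraries, with the mean and SD as bars. Maf, Foxe3, Hsf4 and Prox1 sit near or above 100 RPKM, Pitx3 at 46.2, and Six3 and Pax6 at 13.9 and 11.3.

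Among the factors that act in fibres, Maf was the highest in RPKM, though not in the authors' normalized values per exon length, where Hsf4 (99.4) and Prox1 (87.2) exceeded it (78.9). Maf encodes c-Maf, a basic leucine zipper protein that activates crystallin genes in elongating fibre cells. It measured 140.1, 155 and 163 RPKM in replicates 1, 2 and 3, from 19265, 20811 and 19017 reads. Replicate 1 was the lowest and replicate 3 the highest, and the mean of 153 ± 11.7 RPKM (SD, n = 3) ranked 199 of 7676, in the top 2.59%. Its exon length in the deposited tables was 8241 bases, equal to the merged exons of the reference annotation GENCODE M21.

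Hsf4 encodes a heat shock factor of the lens that acts on fibre genes, among them the nuclease gene Dnase2b. Its level was 105, 98.4 and 101 RPKM, from 3059, 2813 and 2514 reads. The libraries lay close together, and the mean of 101 ± 3.07 RPKM ranked 301. Prox1 encodes a homeodomain factor required for cell cycle exit and elongation of fibres. It measured 81.4, 99.4 and 112 RPKM, from 5611, 6700 and 6551 reads. Replicate 1 lay below the others, and the mean of 97.6 ± 15.4 RPKM ranked 318. Its rank ranged from 267 in replicate 3 to 383 in replicate 1.

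Sox1 encodes an HMG-box factor of the SoxB1 group, required for fibre elongation and γ-crystallin expression. No value for it was given in any of the 3 groups, and no statement on its level was made. The lowest mean among listed genes was 2.0 RPKM, and the rule by which genes entered the list is not given in the sources used here. Its SoxB1 relatives Sox2 and Sox3 were not listed in inbred wild type either. Sox2ot, a noncoding RNA gene that spans Sox2, was listed at 11.8, 11.3 and 12.1 RPKM.

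Of the epithelial factors, Foxe3 had 136, 115 and 158 RPKM, from 2213, 1836 and 2187 reads. Foxe3 encodes a forkhead protein found mainly in lens epithelium, where it is needed for proliferation. Replicate 2 was the lowest and replicate 3 the highest, and the mean of 136 ± 21.5 RPKM ranked 222, in the top 2.89%. The 95% Poisson intervals of replicates 2 (110 to 121 RPKM) and 3 (152 to 165 RPKM), which cover counting error only, did not meet.

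Pitx3 encodes a homeodomain factor whose promoter deletions cause the aphakia mouse, which lacks lenses. It measured 45.2, 41.0 and 52.4 RPKM, from 1189, 1053 and 1168 reads. Like Foxe3, it was lowest in replicate 2 and highest in replicate 3. The mean of 46.2 ± 5.78 RPKM ranked 705, in the top 9.18%.

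The 2 early regulators were the lowest of the 7. Six3, a homeobox gene that activates Pax6 in the presumptive lens ectoderm, measured 14.3, 13.7 and 13.5 RPKM, from 2093, 1961 and 1669 reads. Its mean of 13.9 ± 0.433 RPKM ranked 2321, in the top 30.2%. Pax6, the paired-box gene required for eye formation, measured 11.8, 11.06 and 11.05 RPKM, from 3889, 3577 and 3099 reads. Its mean of 11.3 ± 0.400 RPKM ranked 2829, in the top 36.9%. Both genes were highest in replicate 1 and lowest in replicate 3, the reverse of Maf and Prox1, but by little. The 95% Poisson intervals of replicates 1 and 3 met for Six3 (13.7 to 15.0 and 12.8 to 14.2 RPKM). They also met for Pax6 (11.38 to 12.13 and 10.66 to 11.45 RPKM). Pax6 had more reads than Foxe3, Hsf4 or Pitx3 in every library, divided by an exon length of 19833 bases in the deposited tables. With the reference lengths given below its level rose, yet its mean stayed below those of Foxe3, Hsf4 and Pitx3. With the longest coding transcript it came close to Pitx3 (50.6 against 52.8 RPKM).

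**Figure D2:**
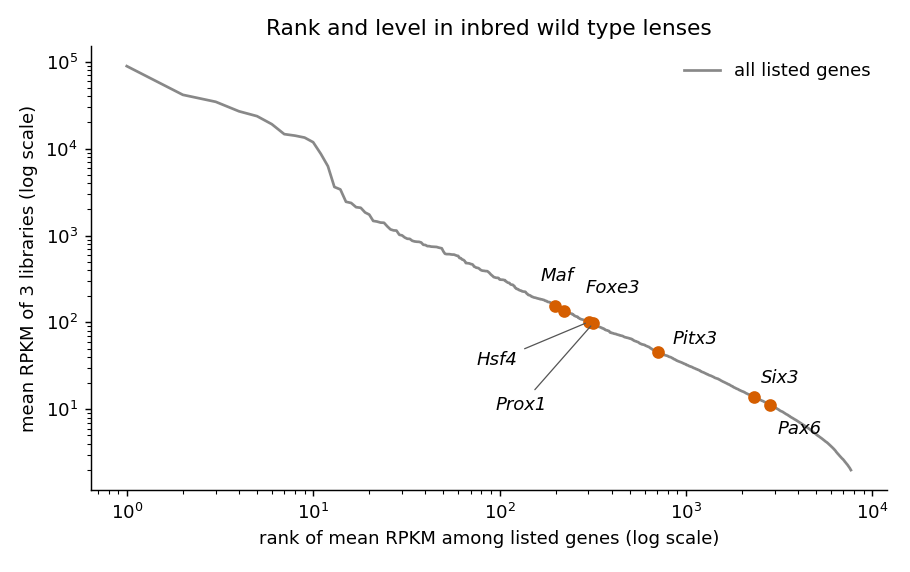
Mean RPKM of the 3 inbred libraries against its rank among the 7676 listed genes (both log scales), with the grey line for all listed genes and orange points for the 7 transcription factor genes. Maf, Foxe3, Hsf4 and Prox1 rank 199 to 318, Pitx3 705, and Six3 and Pax6 2321 and 2829.

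To order the levels, neighbours were compared as log2 ratios of RPKM within each library, where an exact sign-flip test of 3 libraries cannot go below p = 0.25. Of the 6 neighbouring pairs, 4 had ranges that did not overlap between the 2 genes. Maf and Foxe3 overlapped, with a log2 ratio of 0.17 ± 0.22 (SD, n = 3), although Maf was higher in 3 of 3 libraries. Hsf4 and Prox1 also overlapped. Hsf4 was higher in 1 of 3 libraries only, the log2 ratio was 0.07 ± 0.26, and without replicate 1 it was -0.08. Neither pair differed beyond its spread.

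Foxe3 exceeded Hsf4 by a log2 ratio of 0.42 ± 0.21, with no overlap. The step from Prox1 to Pitx3 was 1.07 ± 0.22 and that from Pitx3 to Six3 was 1.73 ± 0.20, both in 3 of 3 libraries. Six3 exceeded Pax6 by 0.30 ± 0.015, a small ratio with the narrowest spread of the 6. Across all 21 pairs of the 7 genes, 20 had the same order in all 3 libraries and 19 had ranges that did not overlap.

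The exon length used for the division moved several of these levels, since RPKM is inversely proportional to it. For Maf and Hsf4 the deposited length equalled the merged exons of GENCODE M21, as it did for 39.6% of 7253 matched genes, and 60.3% were within 10%. Pax6 had 19833 bases against 11694 in merged exons and 4427 in the longest coding transcript. Only 0.345% of matched genes had a larger ratio of deposited to merged length than Pax6. Six3 had 8750 bases against 5446 and 3680. Prox1 went the other way, with 4133 bases against 8390 and 7913, and 11.7% of genes had a lower ratio. Foxe3 had 977 bases against 867 in both reference models, and Pitx3 had 1575 against 1526 and 1380.

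With merged exons in place of the deposited length, Pax6 became 19.1 RPKM and rose to the top 18.8% of 7253 genes, and Six3 became 22.3 RPKM, in the top 16.1%. Prox1 became 48.1 RPKM, level with Pitx3 at 47.7, while Foxe3 (154) and Maf (153) were level at the top. With the longest coding transcript, Pax6 became 50.6 RPKM, in the top 10.2% and beside Prox1 (51.0) and Pitx3 (52.8), and Six3 became 32.9 RPKM, below Pax6. Maf was then 198 RPKM. With either reference length Maf, Foxe3 and Hsf4 led the other 4 genes. Merged exons put Foxe3 level with Maf and kept the order of the others, whereas with the longest coding transcript Prox1 fell below Pitx3 and Six3 below Pax6. The exons used for counting were not stated, and which length fits the transcripts of these lenses was not tested.

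**Figure D3:**
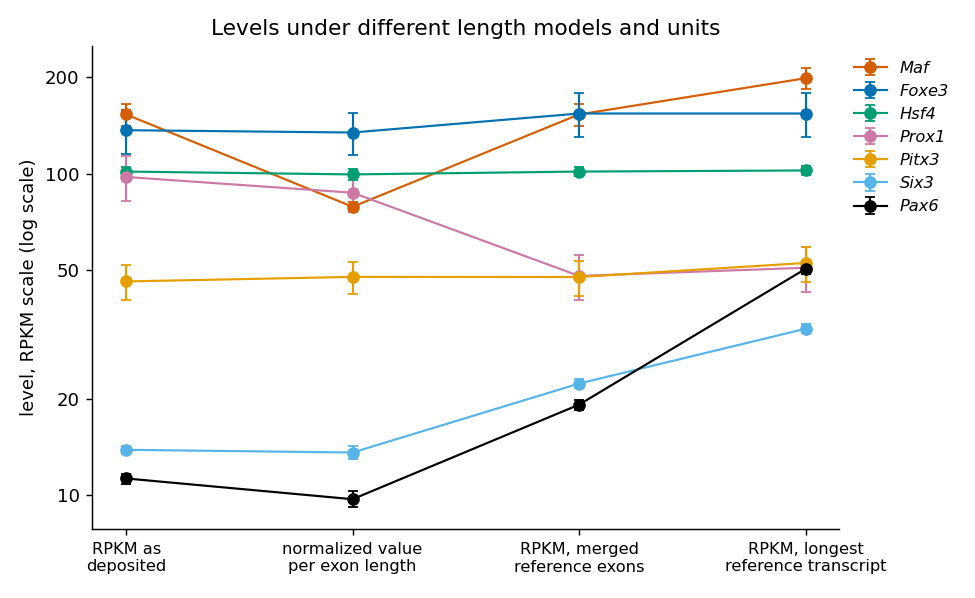
Level on the RPKM scale (log scale, mean and SD of 3 inbred libraries) of the 7 genes as deposited, from the authors' normalized values per exon length, and with 2 reference lengths. Pax6 runs from 9.73 to 50.6 and Prox1 from 48.1 to 97.6, while Hsf4 stays between 99.4 and 102.

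The authors' second measure, a normalized expression value with no stated unit, treated Maf unlike the other 6. Its normalized values were 14738, 15730 and 14511. Per recovered read this was 0.497 of the value of the median listed gene, and 7.03% of listed genes were lower. The other 6 genes had 0.811 (Pax6) to 0.967 (Pitx3) of the median. On this measure per exon length Maf was at 78.9, below Foxe3 at 134, Hsf4 at 99.4 and Prox1 at 87.2, and Pax6 was at 9.73. The cause of the low value per read of Maf was not tested.

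Some genes shared exon bases with others, which matters where reads are counted without strand, and the strand setting is not given in the sources used here. Six3 shares 106 exon bases with Six3os1, a noncoding gene on the opposite strand. Six3os1 was listed at 15.6, 15.5 and 15.7 RPKM, above Six3 in each library by a log2 ratio of 0.18 ± 0.05. Their deposited lengths were 8893 and 8750 bases, and whether reads of the pair were separable was not tested. Antisense genes that were not listed share 440 exon bases with Maf (Gm15655), 168 with Six3 (Gm28528) and 133 with Prox1 (Prox1os). Pitx3 shares 10 with Elovl3, which was listed at 9.18 ± 0.459 RPKM. Foxe3 and Hsf4 overlap no other gene of the annotation.

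The genes differed in how far the 3 libraries spread. Prox1 and Foxe3 each had a coefficient of variation of 15.8%, Pitx3 of 12.5% and Maf of 7.66%. Hsf4, Pax6 and Six3 had 3.02%, 3.55% and 3.13%. The median over all listed genes was 7.21%. Counting error alone would give 0.713% for Maf and 2.97% for Pitx3, the lowest and highest of the 7.

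Compared with listed genes within 1.5-fold of their level, Prox1 and Foxe3 were among the most variable. Of 293 genes near Prox1, 98.0% had a lower coefficient, and of 186 near Foxe3, 97.8% did. For Pitx3 this share was 91.8% of 607 genes, and for Maf 75.4% of 167. Hsf4 (19.9% of 271), Pax6 (18.4% of 1975) and Six3 (15.3% of 1750) lay among the less variable. The spread of Prox1 was 12.5 times its counting error and that of Six3 1.36 times. With only 3 libraries each coefficient is imprecise: it ran from 8.45% to 22.5% for Prox1, from 10.9% to 22.2% for Foxe3, from 6.93% to 17.3% for Pitx3, from 3.60% to 10.8% for Maf, from 1.35% to 5.62% for Six3 and from 0.0959% to 5.76% for Pax6 over other scalings and left-out libraries.

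**Figure D4:**
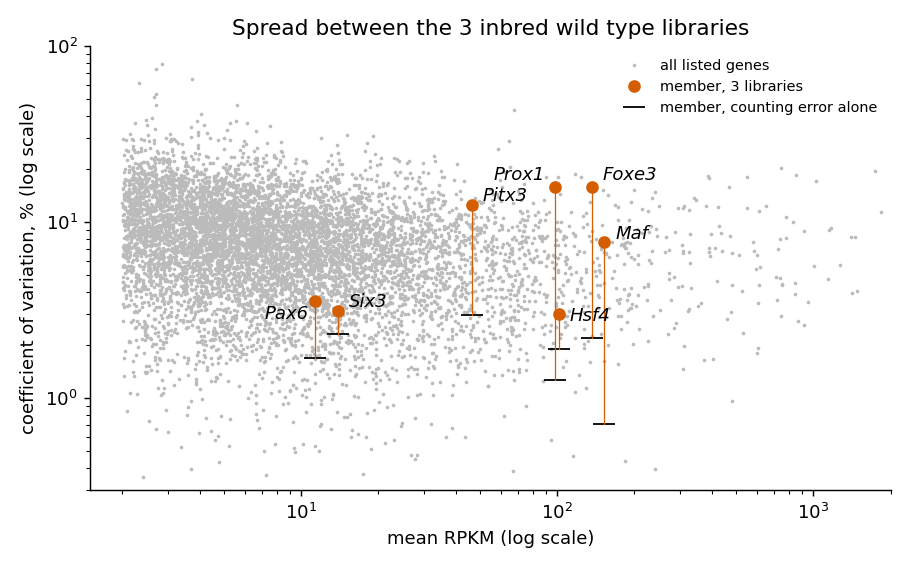
Coefficient of variation over the 3 inbred libraries (percent, log scale) against mean RPKM (log scale), for listed genes (grey) and the 7 transcription factor genes (orange), with black bars for counting error alone. Foxe3 and Prox1, both at 15.8%, stand high among genes of their level, and Hsf4, Six3 and Pax6, at 3.02% to 3.55%, stand low.

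Of the 29 listed genes of a list of 34 epithelial and fibre genes linked to these factors, 17 were highest in replicate 3, 8 in replicate 2 and 4 in replicate 1. Maf, Prox1, Foxe3 and Pitx3 were also highest in replicate 3. Replicate 1 was the lowest library for 17 of the 29, as it was for Maf and Prox1, while Foxe3 and Pitx3 were lowest in replicate 2. How many of all listed genes were highest in replicate 3 or lowest in replicate 1 was not counted. Without that share, the counts cannot tell whether this order of the libraries is particular to the linked genes. Crystallins held 38.4%, 38.0% and 35.3% of the reads assigned to listed genes in replicates 1, 2 and 3, and the part of this in the order of libraries was not tested. Dnase2b measured 16.0, 20.4 and 14.3 RPKM in replicates 1, 2 and 3, highest in replicate 2. The part of cell composition in the spread of the transcription factor genes was not tested.

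By profile over the 3 libraries, measured as the Euclidean distance of log2(RPKM + 0.5), the gene nearest to Maf was Spna2 (distance 0.05), which encodes an α-spectrin. Ccnd2, which encodes cyclin D2 and measured 101 ± 18.1 RPKM, was nearest to Prox1 (0.12). Anapc13, for a subunit of the anaphase-promoting complex, was nearest to Foxe3, at 0.24 the farthest of these neighbours. Hsf4 lay closest to Hspa5 (0.07), which encodes a chaperone of the endoplasmic reticulum. Pitx3 lay closest to Hnrnpm (0.11), Six3 to Actl6a (0.03) and Pax6 to Polr3c (0.0030). The distance takes in the level of a gene as well as its pattern over the libraries.

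Maf, Foxe3, Hsf4 and Six3 each stood above every listed relative of their own family. Pax6, Prox1 and Pitx3 had no listed relative in theirs, and the counts that follow take in relatives of all 8 families. Of 75 relatives in 8 family lists, 20 were listed, with a median of 5.29 RPKM. Maf, Foxe3, Hsf4 and Prox1 exceeded all 20 in the deposited RPKM. With the longest coding transcript Mafg passed Prox1. Of 31 other forkhead genes 10 were listed, from Foxj3 at 2.91 RPKM to Foxk2 at 16.0 RPKM, against 136 RPKM for Foxe3. Of 6 other Maf genes 4 were listed, led by the small Maf gene Mafg at 46.4 ± 1.87 RPKM, level with Pitx3. Mafa measured 9.63 and Maff 2.18 RPKM.

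Hsf1, the heat shock factor of the general stress response, measured 15.2 RPKM and Hsf2 5.41 RPKM, against 101 RPKM for Hsf4. Of 5 other Six genes only Six5 was listed, at 5.18 RPKM. None of the 8 other Pax genes was listed, nor were the other Pitx genes (0 of 2) or Prox2, the only other Prox gene. Of 18 other Sox genes 3 were listed: Sox12 at 14.6, Sox13 at 14.1 and Sox4 at 4.22 RPKM. In all, 6 relatives exceeded Six3 and Pax6, among them Foxk2, Mafg, Sox12, Sox13 and Hsf1, but with either reference length only 1, Mafg, did. Without replicate 3, 4 of the 6 exceeded Six3, and Sox13 then lay below it.

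Among 52 other regulators of the lens, 36 were listed, with a median of 6.80 RPKM. Tdrd7, a Tudor domain protein of RNA granules whose loss causes cataract, was the highest at 364 ± 12.6 RPKM. Caprin2, another RNA-binding factor, measured 153 ± 4.72 RPKM, level with Maf. Ctnnb1, which encodes β-catenin, measured 142 ± 7.03 RPKM, between Maf and Foxe3. Of the 36 listed regulators, 2 exceeded Maf, 3 exceeded Foxe3, Hsf4 and Prox1, 6 exceeded Pitx3, 10 exceeded Six3 and 12 exceeded Pax6. These counts are for the deposited RPKM, and the levels of Prox1, Six3 and Pax6 moved with the exon length used, as given above. Zeb2 itself measured 5.16, 5.96 and 6.31 RPKM in inbred wild type, below all 7 genes. It was not among the genes of the mixed wild type and cKO tables, so the deletion could not be checked by its level.

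Setting cKO against mixed wild type asks what loss of Sip1 changes, but this gave no value for the 8 genes: 0 of 8 were in the 190-gene tables of these groups. In the authors' normalized values every one of the 190 differed by at least 2.50-fold between the group means, so the tables were chosen on these libraries. Of the 190 genes, 99.5% passed limma with Benjamini-Hochberg adjustment, 54.2% higher and 45.3% lower in cKO. The libraries of the groups did not overlap in 100% of them. Absence from such a list is no measure of an unchanged level. Of the fixed gene lists, 14 genes were in the tables, and all 14 were called, 9 higher and 5 lower, a share set by the choice of the tables. The adjusted p values of single genes given below carry the same limit and are no independent support for a change.

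One family relative was among them, Sox3, which encodes a SoxB1 factor closely related to Sox1. It measured 0.703, 0.720 and 0.584 RPKM in mixed wild type and 2.55, 2.96 and 2.63 RPKM in cKO. All cKO libraries lay above all mixed wild type libraries, at 4.06 times the mean. On the scale of log2(RPKM + 0.5), where the change of a gene this low is understated, the difference was 1.46 ± 0.10 (SE, limma adjusted p = 6.74e-08). After quantile normalization over the 190 chosen genes it was -0.0043 (limma adjusted p = 0.960), a scaling that moved the median difference of the 190 from 1.37 to 0.19. Median centring moved that median to 0.49 and left Sox3 at 0.58 (limma adjusted p = 9.57e-05). Sox3 had a mean of 0.669 RPKM in mixed wild type and met the minimum mean of 1 RPKM through the cKO libraries. With a minimum mean of 2 RPKM, it was not tested.

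Genes of the crystallin and lens lists linked to the 8 factors changed in both directions. Dnase2b, the fibre nuclease gene that depends on Hsf4, fell from 27.7, 26.6 and 30.0 RPKM in mixed wild type to 8.13, 9.81 and 8.06 RPKM in cKO (log2 difference -1.64 ± 0.10 SE, limma adjusted p = 2.75e-08). Crygs, which encodes γS-crystallin, rose from 369.9, 429.7 and 449 RPKM to 3200.4, 3983 and 3991 RPKM (3.16 ± 0.12, limma adjusted p = 1.23e-09). It was the only 1 of 16 crystallins in the tables. Birc7 (-1.98) and Lctl (-1.15) fell and Lgsn (2.85), for the lens protein lengsin, rose. Median centring gave 2.27 for Crygs, -2.53 for Dnase2b and -2.03 for Lctl, and quantile normalization 2.63 for Crygs and 1.76 for Lgsn. With a minimum mean of 2 RPKM, Lgsn was not tested.

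Markers of other cell types were also among the 14 genes. Of 17 surface ectoderm genes, 4 were present and rose, Krt8 (3.32), Krt18 (2.43), Dsp (1.82) and Dsc2 (1.43), with a summed level of 2.06 to 2.71 RPKM in mixed wild type and 14.9 to 19.6 in cKO. These differences were smaller under other scalings, and with a minimum mean of 2 RPKM Dsp was not tested. After quantile normalization Krt18 was at 1.17 and Dsp at 0.37, and Dsc2 was no longer called (0.26, limma adjusted p = 0.0927). Median centring gave 1.55 for Krt18, 0.93 for Dsp and 0.55 for Dsc2. Pde6b, 1 of 22 retina genes, rose from at most 0.293 RPKM to at least 12.7 RPKM. Of 20 vessel and blood genes, Hba-a2 (-2.14) and Hba-x (-1.79) fell and Tek (1.46, or 0.57 under either scaling) rose, and their sum went from 400.4 to 541 RPKM in mixed wild type to 93.2 to 152 RPKM in cKO. The part of these markers in the values of Sox3, Dnase2b and Crygs was not tested.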

How the data were processed

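RNA of 9 mouse lens libraries was measured, 3 per group. Libraries were made with a TruSeq kit from 3 independent replicates per genotype, per the labels' protocols. The submitters' processing notes name CASAVA 1.8.2. The aligner, annotation, build and normalization method were not given in the sources used here. For each gene the authors deposited, per the file headers, the RPKM and a second measure called normalized expression value, a score without a stated unit. The inbred tables also give an exon length.

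Of 7700 inbred entries, 24 with 12 repeated symbols were left out. RPKM times exon length fell on whole reads in the low values used (400 per inbred library, 100% within 0.1 reads), which gave depths of 14.1 to 16.7 M reads for the inbred libraries. Mixed wild type had 38.7 to 44.1 M reads, and cKO had 25.9 to 27.4 M. Of the 21 values of the 7 genes, 4 were farther from a whole read, by at most 0.324 reads, and were rounded. Reads recovered in this way set the exact Poisson intervals and the counting error.

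The cKO and mixed wild type groups were compared with limma 3.58.1 (R 4.3.3), with trend, on log2(RPKM + 0.5) over all 190 genes, each of which averaged 1 RPKM or more over the 6 libraries, Benjamini-Hochberg adjusted at 0.05, after a check on simulated data. GENCODE M21 (GRCm38) gave only lengths and overlaps. Python 3.11.15, numpy 2.4.6, pandas 2.3.3 and scipy 1.17.1 were used.

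The members and the gene lists were chosen with earlier results of these data known. Named were the 8 genes, their 3 nearest genes by profile (not all printed; some values are not reported here), up to 4 of the highest genes per list, Zeb2 and each list gene in the 190. Foxe3, Cdh1 and Pdgfra are the markers set for lens epithelium, and Foxe3 is itself among the genes described. Outside this rule, the lowest relatives and the overlapping or neighbouring genes were chosen after their values were seen or from the annotation. Alternatives were 3 other scalings, the normalized values per length, left-out libraries, other pseudocounts and filters, quantile normalization, median centring, no trend and a replicate block. The 2 reference lengths were added after seeing the data.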

Additional observations from a re-analysis of the deposited data

How the results depend on the processing

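Levels stayed within 1 SD in 53 of 63 alternatives and moved in 10, log2 ratios of neighbours stayed in 24 of 36, moved in 7 and changed sign in 5, and coefficients of variation stayed in 37 of 49 and moved in 12. Left out of these counts are 18 ratios under scalings per library and 14 coefficients under other lengths, where the change cancels. With normalized values per exon length, Maf was at 78.9 and Pax6 at 9.73, the ratio of Maf to Foxe3 was -0.76 and that of Six3 to Pax6 0.48, and the cause was not tested. With merged reference exons, which change only the divisor, Prox1 was at 48.1, Six3 at 22.3 and Pax6 at 19.1, and the ratios were -0.00042 for Maf to Foxe3, 1.09 for Hsf4 to Prox1, 0.0064 for Prox1 to Pitx3, 1.09 for Pitx3 to Six3 and 0.22 for Six3 to Pax6. With the longest coding transcript, Maf was at 198, Prox1 at 51.0, Pitx3 at 52.8, Six3 at 32.9 and Pax6 at 50.6, and the ratios were 1.02 for Hsf4 to Prox1, -0.054 for Prox1 to Pitx3, 0.67 for Pitx3 to Six3 and -0.62 for Six3 to Pax6. Leaving out each inbred library gave -0.080 to 0.17 for Hsf4 to Prox1. At a mean of at least 5 RPKM, 35 of the transcription factor list genes counted as listed, against 56. In the cKO comparison 14 list genes were called with the replicate block as without it. Same-numbered libraries had correlations of deviations of -0.10, -0.11 and -0.15, and 0 of 6 correlated best with their own number, so the numbers were not taken as pairs. Quantile normalization gave -0.0043 for Sox3 and ended the call of Dsc2 (0.26, limma adjusted p = 0.0927). The 7 genes had 1053 reads or more in each inbred library.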
